A study of Mus musculus with 36 samples.

Results

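The nuclear genes for the subunits of respiratory complexes II to V were followed over the day in mouse liver under intermittent hypoxia (IH) and under normoxia (control). They were chosen by symbol: Sdha, Sdhb, Sdhc, Sdhd, Cyc1, Cycs and every symbol that starts with Uqcr, Cox4i, Cox5, Cox6, Cox7, Cox8 or Atp5, listed on 1 row of both deposited tables, with a mean of at least 1 FPKM (fragments scaled to transcript length and to the size of the library) over 36 libraries. The names matched 49 symbols, of which 43 passed the mean of 1 FPKM, out of 24066 symbols listed on 1 row. The 43 genes were 4 of complex II, 9 of complex III, Cycs, 12 of complex IV and 15 of complex V. The other 2, Atp5s and Atp5sl, share the prefix and are not core subunits. Cox7a2l, which acts in supercomplex assembly, is counted with complex IV. All 43 were above the filter used for testing.

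The mice were wild-type male C57BL/6JRj animals, 16 weeks old, housed 5 per cage with chow given ad libitum and with lights on at zeitgeber time 0 (ZT0). In the IH groups the chamber air cycled 60 times per h between 21% and 5% oxygen from ZT0 to ZT8, every day for 4 weeks. The control groups were given matched cycles of air. Whole liver from 3 mice was taken at each of ZT0, ZT4, ZT8, ZT12, ZT16 and ZT20 in each condition, which gave 36 poly(A)-selected RNA-seq libraries, 1 per mouse. ZT4 and ZT8 therefore fell within or at the end of the hours of IH, and ZT12 to ZT20 in the hours of room air.

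Complex II (succinate dehydrogenase) passes electrons from succinate to ubiquinone, complex III passes them on to cytochrome c, and complex IV (cytochrome c oxidase) passes them to oxygen. Complexes III and IV pump protons, and complex V (ATP synthase) uses the proton gradient to make ATP. Complex II is encoded wholly in the nucleus, whereas the core of complex IV, 1 subunit of complex III and parts of the membrane sector of complex V are encoded in mitochondrial DNA, and the nuclear subunits must be imported and fitted to them. In the hepatocyte, oxidative phosphorylation powers gluconeogenesis, urea synthesis and other anabolic work, and several complex IV subunits exist as isoforms for particular tissues or for low oxygen.

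The promoters of nuclear respiratory genes are known for binding sites of NRF1, of GABPA (also called NRF2), of YY1 and of CREB. In the RefSeq promoter windows (GRCm38.p6, the mm10 build, from 250 bases before to 50 after the start), 35 of the 43 genes had a window and 8 did not. On either strand, the NRF1 consensus motif was found in 4 of the 35 (11.4%, against 1.07% of the windows of 27025 genes), the GABPA motif CCGGAAG in 12 (34.3%, against 9.93%), the YY1 motif in 2 (5.71%, against 0.995%) and the CREB element TGACGTCA in 2, Cycs and Uqcrfs1 (5.71%, against 2.03%). The E-box CACGTG was found in 5 (14.3%, against 8.09%), the D-box TTATGTAA in 1, Cox7b (2.86%, against 1.11%), and the shorter CREB element TGACG, which lies within the full one, in 11 (31.4%, against 23% of all). The 4 genes with the NRF1 motif were Atp5g2, Atp5k, Cox6a1 and Uqcrc1. The 4 stretches printed here, each from 200 to 25 bases before the RefSeq start and all on the minus strand, show the motifs of 4 genes that the results below return to, with the motif in capitals.
Cycs, CREB element, chr6:50566594-50566769: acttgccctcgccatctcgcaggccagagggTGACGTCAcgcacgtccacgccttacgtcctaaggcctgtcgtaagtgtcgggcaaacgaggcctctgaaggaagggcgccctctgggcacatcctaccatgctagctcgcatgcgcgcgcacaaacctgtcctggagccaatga
Cox6a1, NRF1 motif, chr5:115348983-115349158: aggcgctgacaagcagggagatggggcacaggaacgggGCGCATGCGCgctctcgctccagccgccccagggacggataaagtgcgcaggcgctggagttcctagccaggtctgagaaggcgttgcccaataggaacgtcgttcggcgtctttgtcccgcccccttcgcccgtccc
Atp5e, GABPA motif on the opposite strand, chr2:174464126-174464301: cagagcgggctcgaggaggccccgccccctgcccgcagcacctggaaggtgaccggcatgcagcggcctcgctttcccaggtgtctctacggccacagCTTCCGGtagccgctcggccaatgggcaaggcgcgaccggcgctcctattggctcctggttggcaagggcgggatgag
Uqcr11, GABPA motif, chr10:80406846-80407021: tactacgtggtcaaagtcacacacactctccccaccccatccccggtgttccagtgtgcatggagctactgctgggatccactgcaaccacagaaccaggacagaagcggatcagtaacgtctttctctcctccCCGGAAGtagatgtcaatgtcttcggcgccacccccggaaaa

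The CREB element of Cycs lay 169 to 162 bases before its start, the NRF1 motif of Cox6a1 162 to 153 bases, and the GABPA motifs of Atp5e and Uqcr11 102 to 96 and 66 to 60 bases before theirs. A match is a stretch of letters in this window and not a measured binding site.

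The number of reads behind the values is unknown, since the tables give FPKM only. Between 15573 and 16188 symbols were above 0 per library, and the total FPKM lay at 561964 to 626371 in 35 libraries and at 808274 in the remaining library, control ZT12 replicate 2. In 3 libraries the acute-phase gene Saa1 was above 10000 FPKM, namely IH ZT0 replicate 2 at 22865, control ZT12 replicate 2 at 20546 and control ZT16 replicate 3 at 12912. Control ZT12 replicate 2 also had a summed level of 206 FPKM over 3 neutrophil markers, where the others had at most 13.0, and a summed Kupffer cell and leukocyte marker level of 228 FPKM, where the other libraries of ZT4 and ZT12 had 30.5 to 91.2. All 5 hepatocyte markers were present in the libraries of ZT4 and ZT12, and their sum ranged from 47320 to 66937 FPKM. The results below use all 36 libraries, and the main counts, medians and single genes are also given without these 3. In bulk liver, fewer cells of a type and less RNA per cell cannot be told apart.

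The levels of the 43 mRNAs ran from a few FPKM for Atp5s and Cox7a1 to 681 FPKM for Uqcrq of complex III. FPKM is scaled to transcript length, yet values still varied with length between libraries. In control ZT12 replicate 2 the median log2 deviation from the gene means was 0.593 for transcripts of 500 to 700 nucleotides and -0.372 above 2500. Levels of genes of unlike length are thus only roughly comparable. The small complex III subunit Uqcrq had the highest mean, 681 FPKM over the 36 libraries, with 1719 FPKM in control ZT12 replicate 2. It was followed by Cox6a1 of complex IV and the catalytic F1 beta subunit Atp5b, both at 560 FPKM. Within complex III, the core subunits Uqcrc1 and Uqcrc2 averaged 142 and 99.4 FPKM and the Rieske iron-sulfur protein Uqcrfs1 135 FPKM. The 4 subunits of complex II lay close together, from 136 FPKM for the anchor Sdhd to 156 FPKM for the iron-sulfur subunit Sdhb. Cytochrome c, Cycs, the mobile carrier between complexes III and IV, averaged 42.4 FPKM, well under its partner cytochrome c1, Cyc1, at 163 FPKM. Many of these genes, Cycs among them, have processed copies elsewhere in the genome, and how shared reads were counted is not given in the sources used here, so these levels are uncertain.

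The shares of the isoforms were close to each other in the 2 conditions. The c-ring protein of ATP synthase is encoded by 3 genes, and their shares of the summed FPKM were 55.1% for Atp5g3, 24.0% for Atp5g1 and 20.9% for Atp5g2 in control; under IH Atp5g1 had 24.1% and Atp5g2 20.8%. The heart and muscle isoform Cox7a1 made up 2.47% ± 0.721 of Cox7a1 plus Cox7a2 in control and 2.68% ± 0.697 under IH (SD, n = 18 each), a difference within the spread between libraries. The isoform Cox4i2, known to be induced by low oxygen, stayed under the 1 FPKM limit at a mean of 0.0822 FPKM, was above 0 in 33 of the 36 libraries, and made up 0.0165% of Cox4i1 plus Cox4i2 in control and 0.0178% under IH. The other 5 symbols under the limit, all isoforms of muscle, testis or other tissues, were Cox6b2 at 0.433 FPKM, Cox8b at 0.122 FPKM, Cox6a2 at 0.0279 FPKM, and Cox7b2 and Cox8c, which were listed at 0 in these means. The 6 subunits of complexes III to V that mitochondrial DNA encodes were not analysed here.

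In control livers the subunit mRNAs had a low point at ZT4 and a high point at ZT12, at the end of the light phase. By the group means, 36 of the 43 genes were lowest at ZT4 and 39 were highest at ZT12, with a median ratio of peak to trough of 1.55 (range 1.11 to 2.77). Leaving out the 3 libraries, 38 were lowest at ZT4 and 40 highest at ZT12, with a median ratio of 1.34 (1.16 to 2.0). The summed FPKM of the 43 genes in the control libraries was 9851, 10265 and 9203 at ZT4 and 13856, 20401 and 12103 at ZT12. Every ZT12 sum was above every ZT4 sum, and the value of 20401 is that of replicate 2, the library that stands apart.

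**Figure D1:**
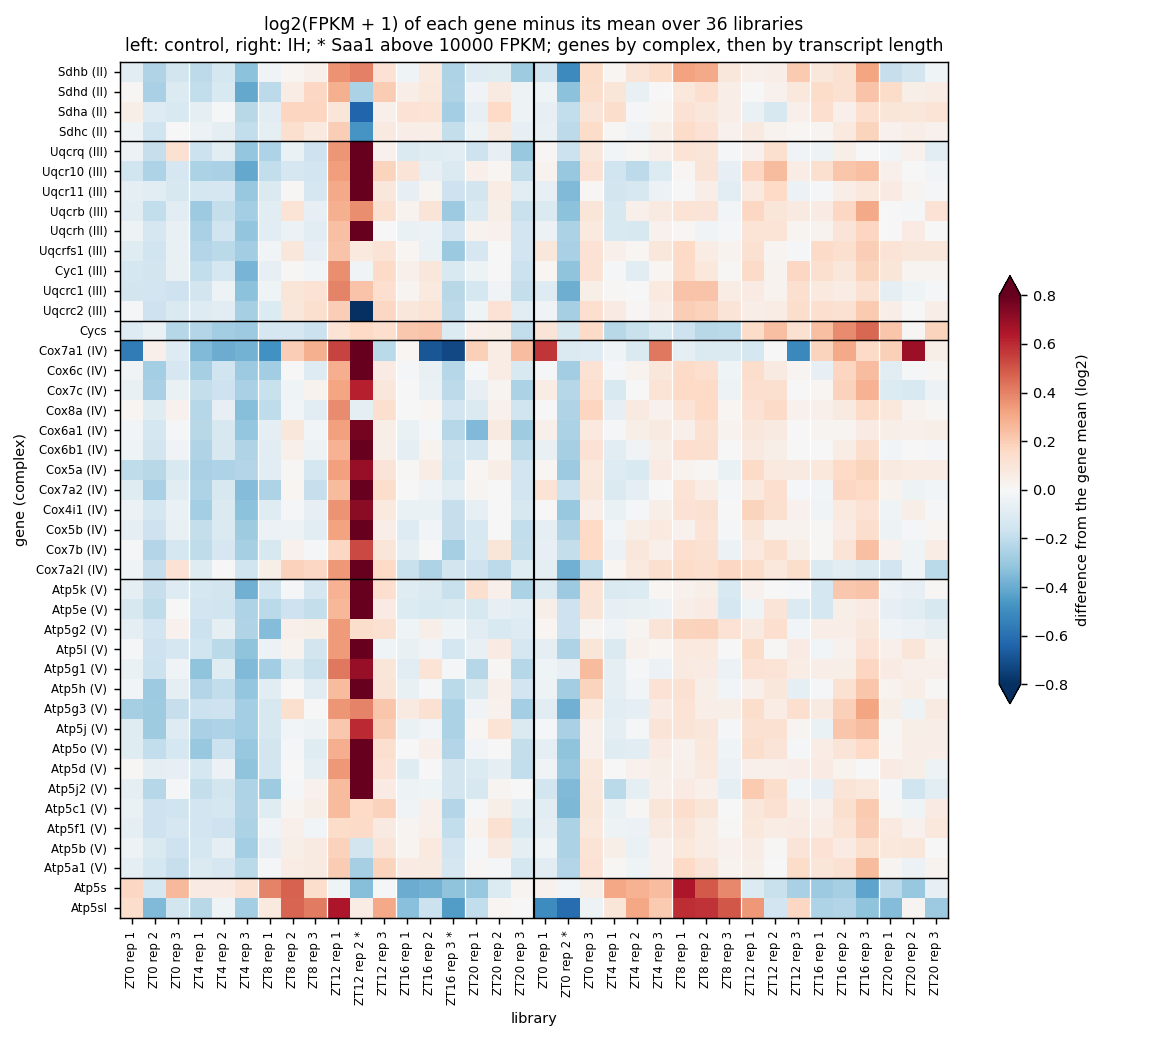
Each cell is the log2(FPKM + 1) of 1 gene (vertical axis, grouped by complex and then by transcript length) in 1 library (horizontal axis, 18 control libraries left and 18 IH libraries right, by time), minus that gene's mean over the 36 libraries, and stars mark the 3 libraries with Saa1 above 10000 FPKM. Control ZT4 is low and control ZT12 high in most genes, and the change of colour over the day is fainter in the IH libraries.

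Under IH the group means of the 43 genes lay closer together over the day, and their peaks were spread over several times. By the group means, 32 of the 43 were lowest at ZT0, 23 were highest at ZT16, 11 at ZT8 and 7 at ZT12, and the median ratio of peak to trough was 1.15 (1.06 to 2.16). The low point at ZT0 rested on 1 library, since all 43 genes were below their own mean in IH ZT0 replicate 2; without the 3 libraries 2 genes were lowest at ZT0, 21 at ZT4 and 14 at ZT20, 23 were still highest at ZT16, and the median ratio was 1.12 (1.01 to 2.16). The summed FPKM was 10853, 11107 and 11650 in the IH libraries of ZT4 and 12072, 11958 and 11553 in those of ZT12. These ZT4 and ZT12 sums overlapped, and the IH sums lay between the control sums of ZT4 and ZT12.

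**Figure D2:**
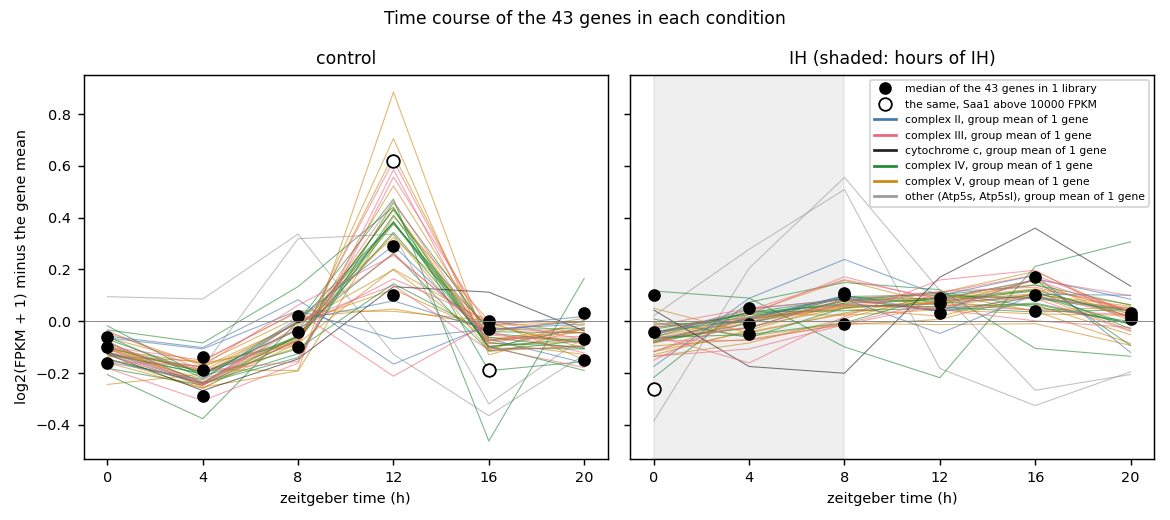
The horizontal axis is zeitgeber time in h and the vertical axis log2(FPKM + 1) minus each gene's mean; the panels show control and IH for the 43 genes, and the hours of IH are shaded. The control genes dip at ZT4 and rise to ZT12, and the IH curves stay closer to 0.

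From ZT4 to ZT12 most subunit mRNAs of complexes III, IV and V rose in control, as did Sdhb and Sdhd of complex II. This contrast was chosen because earlier results of these data showed the list lowest at ZT4 and highest at ZT12 in control. Its p-values are therefore not independent of that choice, which also favours a larger change in control than under IH. In the control libraries, 37 of the 43 genes were higher at ZT12 (limma, Benjamini-Hochberg adjusted p under 0.05), beside 13.6% of the 13215 genes tested, and none was lower. The median difference was 0.55 on the log2(FPKM + 1) scale, beside -0.03 over all genes tested. In 35 of the 43 every ZT12 library was above every ZT4 library, which held for 13.5% of all genes. With the 3 libraries left out, 40 were higher (19.7% of all genes) with a median of 0.41, and those not called were Sdha, Cox7a1 and Atp5s. The count was 0 when the ZT4 and ZT12 libraries were fitted alone. The share of all genes in that fit is not given here, so it cannot be told from fewer calls over all genes. Leaving out the 8 libraries above 1000 FPKM of Saa1 leaves 1 control library at ZT4, too few for a count to be read.

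In complex II, Sdhb, the iron-sulfur subunit, was at 134, 140 and 123 FPKM at ZT4 and at 199, 205 and 168 FPKM at ZT12 in control, without overlap (0.52, SE 0.116, adjusted p = 0.0014, limma). The flavoprotein Sdha, which oxidizes succinate, was at 145, 151 and 130 FPKM at ZT4 and at 163, 97.5 and 157 FPKM at ZT12. Here the groups overlapped, because replicate 2 lay under all others, and the difference was -0.06, or 0.17 without the 3 libraries, neither of them called. The anchors split in the same way, with Sdhd called (0.32, adjusted p = 0.048) and Sdhc not (0.04), but both were called without the 3 libraries (0.49, and 0.24 with adjusted p = 0.013).

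In complex III, 8 of 9 genes were called higher, with a median of 0.51. Uqcrc1, a core subunit, was at 127, 137 and 112 FPKM at ZT4 and at 186, 166 and 155 FPKM at ZT12 (0.43, SE 0.094, adjusted p = 0.0012). All 3 values rose above those of ZT4, and leaving out the 3 libraries left the difference at 0.44. The small subunit Uqcr10 was at 223, 222 and 200 FPKM at ZT4 and at 335, 595 and 300 FPKM at ZT12 (0.87, adjusted p = 7.7e-05; 0.56 without the 3 libraries). The small subunit Uqcr11 was at 452, 454 and 404 FPKM at ZT4 and at 614, 1380 and 530 FPKM at ZT12 (0.81, adjusted p = 0.0015; 0.39 without the 3 libraries). In both small subunits replicate 2 lay far above the other ZT12 libraries. The other core subunit, Uqcrc2, was the exception, at 91.6, 92.9 and 81.8 FPKM at ZT4 and at 113, 48.7 and 111 FPKM at ZT12, so that replicate 2 lay under all ZT4 libraries. Its difference was -0.06, and 0.33 without the 3 libraries (adjusted p = 0.0011).

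Cytochrome c rose in control with little spread within the groups. Cycs was at 35.5, 34.4 and 34.1 FPKM at ZT4 and at 45.3, 47 and 46.1 FPKM at ZT12 in control, with every library of ZT12 well above every library of ZT4, replicate 2 included. The difference was 0.40 (SE 0.087, adjusted p = 0.001) with all libraries and 0.39 without the 3.

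In complex IV all 12 genes were called higher at ZT12 in control, with a median of 0.61, and 11 without the 3 libraries, with a median of 0.41. Cox5a, a matrix-facing subunit, was at 198, 199 and 201 FPKM at ZT4 and at 297, 384 and 254 FPKM at ZT12 (0.62, SE 0.104, adjusted p = 7e-05; 0.46 without the 3 libraries). The ZT4 libraries were nearly identical and all ZT12 libraries lay above them. Cox4i1, the general isoform of the regulatory subunit 4, was at 393, 438 and 377 FPKM at ZT4 and at 609, 782 and 500 FPKM at ZT12 (0.62, adjusted p = 9.9e-05; 0.46 without the 3 libraries). Cox7a1, at 2.47, 2.37 and 2.41 FPKM at ZT4 and 5.46, 8.45 and 2.82 FPKM at ZT12, was the one call lost without the 3 libraries (0.54, adjusted p = 0.11), and at so low a level the log2(FPKM + 1) scale understates a change.

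In complex V, 13 of 15 genes were called higher, with a median of 0.61, and all 15 without the 3 libraries, with a median of 0.40. The c-ring gene Atp5g1 was at 166, 194 and 163 FPKM at ZT4 and at 279, 337 and 222 FPKM at ZT12 (0.66, SE 0.107, adjusted p = 4.9e-05; 0.51 without the 3 libraries). Its groups did not overlap. Atp5e, the small epsilon subunit of the F1 head, was at 279, 278 and 261 FPKM at ZT4 and at 373, 1559 and 325 FPKM at ZT12. Replicate 2 was more than 4 times any other of these libraries, and the difference went from 1.07 with all libraries (adjusted p = 0.0056) to 0.35 without the 3 (adjusted p = 0.001). The large catalytic subunits Atp5a1 and Atp5b were the 2 not called (0.19 and 0.21), since replicate 2 was lowest of the ZT12 libraries in both, at 275 FPKM for Atp5a1 beside 381 and 374 FPKM, and at 505 FPKM for Atp5b beside 634 and 600 FPKM. Both were called without the 3 libraries, with differences of 0.35 and 0.31.

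The genes in which replicate 2 was high and those in which it was low differed in transcript length. Across the 43 genes, Spearman's rho of transcript length (GENCODE vM21) with the ZT12 minus ZT4 difference in control was -0.736, and across 13118 genes it was -0.328. When the 3 libraries were left out, rho was -0.316 across the 43 genes and -0.091 across all. Genes are not independent replicates, and these coefficients share the same libraries and gene models. In the 15 genes with transcripts of up to 600 nucleotides the median difference was 0.66, and in the 10 genes above 1500 nucleotides 0.26; without the 3 libraries these medians were 0.41 and 0.34. The part of transcript length in the difference was not tested beyond these values and a setting in which the length trend of each library was removed.

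**Figure D3:**
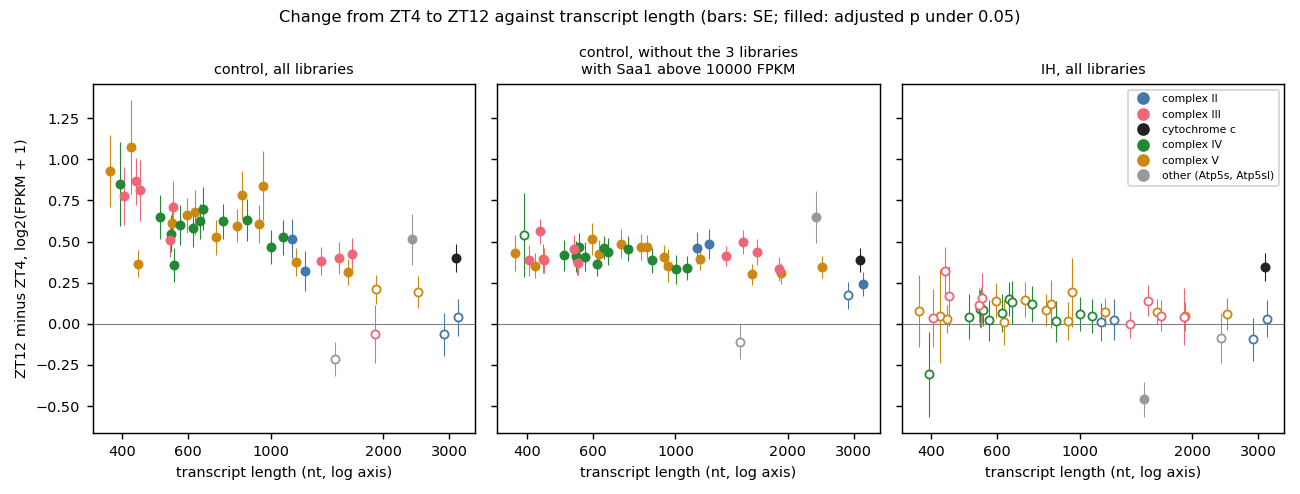
Each point is 1 of the 43 genes, with transcript length in nucleotides on a log axis horizontally and the ZT12 minus ZT4 difference on the log2(FPKM + 1) scale vertically; bars are SE and filled points have an adjusted p under 0.05. With all control libraries, short transcripts show larger differences (rho -0.736); without the 3 libraries the slope is shallower (rho -0.316), and under IH the points lie near 0.

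Under IH the ZT4 to ZT12 rise was called in 1 gene, Cycs. It was at 35.9, 36.9 and 38.4 FPKM at ZT4 and at 46.4, 49.8 and 45.8 FPKM at ZT12 (0.35, SE 0.087, adjusted p = 0.0045), with no overlap and with levels close to those of control. Atp5s, which RefSeq now names Dmac2l, fell from 3.82, 3.73 and 3.62 FPKM to 2.61, 2.44 and 2.26 FPKM (-0.46, SE 0.104, adjusted p = 0.0018). These were 2 of the 43 genes, where 24.8% of all genes tested were called in either direction. The median difference of the 43 was 0.06, beside -0.06 over all genes, and in 5 of the 43 every ZT12 library was above every ZT4 library, beside 16.8% of all genes. Uqcr10 was called too without the 3 libraries (0.32, SE 0.069, adjusted p = 0.00079), which made 3 genes, beside 37.4% of all.

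Single Cox and Atp5 genes that rose in control were not called under IH. Atp5g1 was at 196, 206 and 201 FPKM in the IH libraries of ZT4 and at 225, 224 and 216 FPKM in those of ZT12. All of its IH values lay above the ZT4 control libraries and below the mean of the ZT12 control libraries, 279 FPKM, or 250 FPKM without the 3 libraries. The ZT12 groups overlapped, since control ZT12 replicate 3, at 222 FPKM, was below IH ZT12 replicates 1 and 2. Atp5d, the delta subunit of F1, was at 266, 272 and 275 FPKM at ZT4 and at 274, 273 and 276 FPKM at ZT12 under IH, where its control libraries went from 241, 258 and 212 FPKM to 339, 479 and 288 FPKM. Its IH values overlapped between the times, and its control values did not.

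The difference between the conditions in this change, tested directly, was called in 7 of the 43 genes with the values as deposited, all lower under IH, beside 3.87% of all genes tested called in that direction. None of the 43 was called with FPKM rescaled to a common sum, with median of ratios or with quantile normalization, nor with the length trend of each library removed. The median difference was -0.34, -0.47, -0.22 and -0.20 in these settings, in that order. They were Atp5d (-0.59, SE 0.161, adjusted p = 0.033), the peripheral stalk subunits Atp5j (-0.51, adjusted p = 0.034) and Atp5h (-0.67, adjusted p = 0.04), Atp5g1 (-0.52, adjusted p = 0.041), and the complex IV subunits Cox5b (-0.61, adjusted p = 0.041), Cox6a1 (-0.58, adjusted p = 0.045) and Cox4i1 (-0.50, adjusted p = 0.047). By GENCODE vM21 (mm10) the 7 lie apart on the genome, at chr10:80138632-80145818 for Atp5d, chr16:84827866-84835625 for Atp5j, chr11:115415689-115419962 for Atp5h, chr11:96068852-96075670 for Atp5g1, chr1:36691449-36693681 for Cox5b, chr5:115345642-115348981 for Cox6a1 and chr8:120668222-120674207 for Cox4i1. No gene of complexes II or III was among them. The median over the 43 was -0.50, beside -0.03 over all genes. An unadjusted p under 0.05 was reached by 33 of the 43, beside 3097 of the 13215 genes tested, 2062 of them lower under IH. Leaving out the 3 libraries, 24 were called lower (11.7% of all genes) with a median of -0.34 beside -0.10 over all genes, all 43 differences were negative, and the smallest adjusted p was that of Uqcrfs1 (-0.42, SE 0.08, adjusted p = 0.0033). Those 24 were 2 of complex II, 5 of complex III, 6 of complex IV, 10 of complex V and Atp5sl, and Atp5g1 was no longer among them (-0.37, adjusted p = 0.054). For Cycs the difference was -0.06. The count varied with single libraries. It was 29 without control ZT12 replicate 3, 15 without IH ZT0 replicate 2, and 11 without IH ZT0 replicate 3 or without control ZT12 replicate 1. It was 6 without control ZT12 replicate 2 and 1 without IH ZT4 replicate 1. It was 0 without replicates 2 or 3 of IH ZT4 or IH ZT12, or without control ZT4 replicates 1 or 3. The shares of all genes in these fits and in the scaling and length settings above are not given here. Such counts cannot be told from a change in calls over all genes.

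Uqcrfs1, the Rieske protein of complex III, showed this pattern with a small spread. It was at 114, 115 and 110 FPKM at ZT4 and 158, 141 and 145 FPKM at ZT12 in control, and at 138, 136 and 143 FPKM and 146, 136 and 133 FPKM under IH. The control times did not overlap, the IH times did, and every IH library of ZT4 was above every control library of ZT4. Atp5j was at 231, 232 and 229 FPKM at ZT4 and 321, 419 and 317 FPKM at ZT12 in control, and at 261, 275 and 297 FPKM and 301, 301 and 281 FPKM under IH. In Atp5j the IH ZT4 libraries lay between the control libraries of ZT4 and those of ZT12.

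**Figure D4:**
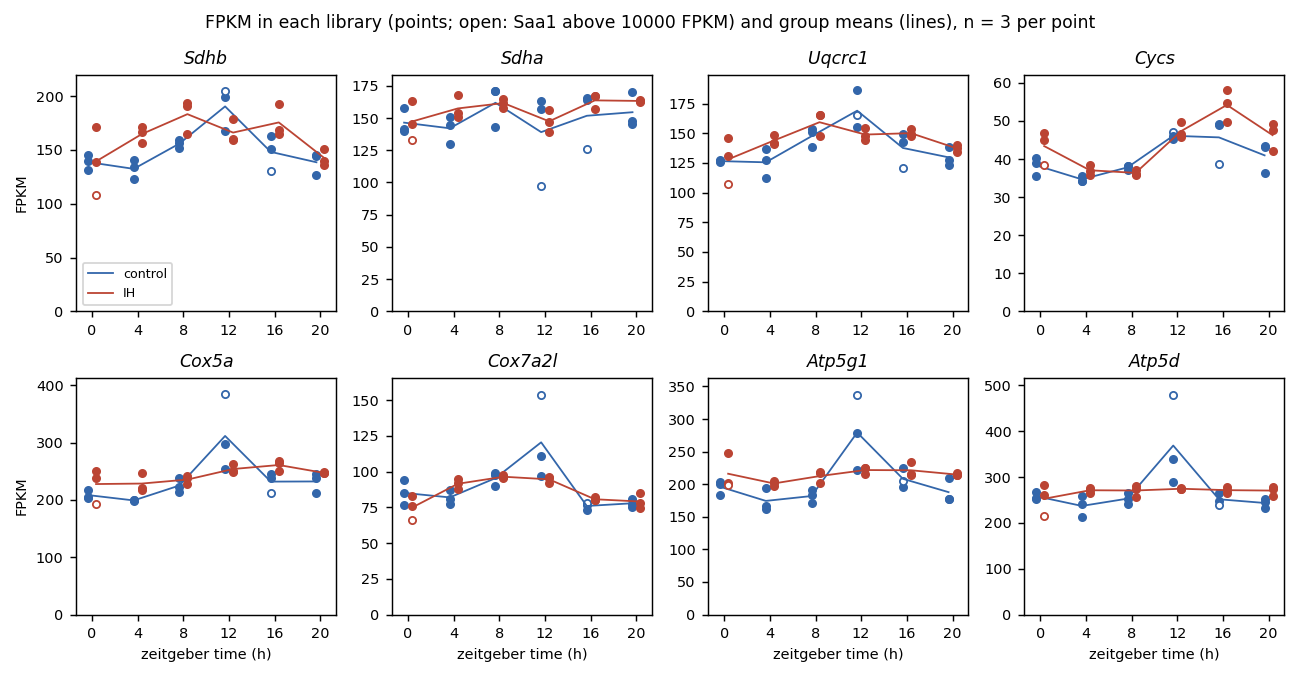
FPKM on a linear axis from 0 against zeitgeber time in h for Sdhb, Sdha, Uqcrc1, Cycs, Cox5a, Cox7a2l, Atp5g1 and Atp5d in control and IH; points are libraries, open points the libraries with Saa1 above 10000 FPKM, and lines join the group means of 3. Cycs rises after ZT8 in both conditions, and Atp5g1 has a ZT12 peak in control (mean 279 FPKM) that is lower under IH (222 FPKM), with overlapping libraries.

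Some of the subunit mRNAs were higher under IH than in control in the hours of IH. Over ZT4 and ZT8, with 6 libraries per condition, 13 of the 43 genes were called higher, beside 6.05% of all genes tested, and none was called lower. All 43 differences were positive, from 0.02 for Cycs to 0.31 for Atp5sl, with a median of 0.16 beside 0.04 over all genes. An unadjusted p under 0.05 was reached by 35, beside 3579 of the 13215 genes tested, 2654 of them higher under IH. By complex, the 13 were Sdhb, then Uqcrq, Uqcrfs1 and Uqcr10, then Cox6c, Cox8a, Cox4i1 and Cox5b, then Atp5g1, Atp5j, Atp5h and Atp5e, and Atp5sl. These comparisons share the control ZT4 libraries with the change from ZT4 to ZT12 given above, and are not independent of it.

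Sdhb was at 134, 140 and 123 FPKM at ZT4 and at 152, 156 and 159 FPKM at ZT8 in control, and at 157, 166 and 171 FPKM and 194, 191 and 165 FPKM under IH. At each of these times every IH library was above every control library, and the difference was 0.27 (SE 0.052, adjusted p = 0.016). Cox6c, a small subunit of complex IV, was at 311, 334 and 305 FPKM at ZT4 and at 308, 373 and 348 FPKM at ZT8 in control, and at 368, 380 and 398 FPKM and 416, 411 and 365 FPKM under IH (0.24, SE 0.056, adjusted p = 0.028). Its groups did not overlap at ZT4 and did at ZT8. Atp5sl, RefSeq's Dmac2, an assembly factor of complex I, was at 17.2, 19.7 and 16.6 FPKM at ZT4 and 21.4, 28.2 and 27.3 FPKM at ZT8 in control, and at 21.7, 25.3 and 23.5 FPKM and 30.9, 30.7 and 29 FPKM under IH (0.31, SE 0.073, adjusted p = 0.029), all above control at the same time.

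The 13 calls depended on the scaling and on single libraries of these 12. The count was 6 with a common sum, 3 with median of ratios, 4 with quantile normalization, 3 with the length trend removed and 0 without the time factor. Over all genes the higher and lower calls went from 799 and 255 to 458 and 459 with median of ratios. Among single libraries, the count was 21 without control ZT8 replicate 2 and 5 without IH ZT4 replicate 1. It was 1 without IH ZT4 replicates 2 or 3, IH ZT8 replicates 1 or 2, control ZT4 replicates 1 or 3, or control ZT8 replicate 1. For the single libraries and the other settings, calls over all genes are not given beside these counts. Such counts cannot be told from a change in calls over all genes. Control ZT4 replicates 1 and 3 had Saa1 at 2357 and 2435 FPKM, and with all 8 libraries above 1000 FPKM of Saa1 left out, which leaves 1 control library at ZT4, no member was called. The part of this level in the difference was not tested further.

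At single time points no member passed the adjusted threshold of limma with all libraries. At ZT4 none was called (1.16% of all genes were), the smallest adjusted p was 0.0747, and the median difference was 0.20. An unadjusted p under 0.05 was reached by 15, all higher under IH, beside 2172 of the 13215 genes tested, 1689 of them higher. In 40 of the 43 every IH library of ZT4 was above every control library of ZT4, beside 26.7% of all genes. Without the 3 libraries, none of which is a ZT4 library, 14 were called higher at ZT4, beside 7.96% of all genes, led by Uqcrfs1 (0.29, SE 0.053, adjusted p = 0.0026). At ZT12 none was called (0.772% of all genes) and the median was -0.26. An unadjusted p under 0.05 was reached by 23, all of them lower under IH, beside 3249 of the 13215 genes tested, 1548 of them lower. Atp5d had the smallest adjusted p (-0.39, SE 0.114, adjusted p = 0.07). Without the 3 libraries none was called at ZT12 either (0% of all genes), 6 had an unadjusted p under 0.05 and the smallest adjusted p was 0.235. The count at ZT12 was 24 without control ZT12 replicate 3 and 14 without control ZT12 replicate 1. The shares of all genes in these fits are not given here.

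At the other times the members lay closer together. At ZT0 none was called (0% of all genes), 0 had an unadjusted p under 0.05 (1000 of all 13215 genes did) and the median was 0.03. With IH ZT0 replicate 2 and the other libraries of high Saa1 left out, the ZT0 median was 0.13 and 14 had an unadjusted p under 0.05, with none called. At ZT8 none was called (0.00757% of all genes), 2 had an unadjusted p under 0.05 (627 of all genes did), 41 of 43 were higher under IH and the median was 0.10. At ZT16 none was called (0.00757% of all genes), 10 had an unadjusted p under 0.05 (436 of all genes did), all 43 differences were positive and the median was 0.16. Without control ZT16 replicate 3 and the other libraries of high Saa1, 41 were positive at ZT16, Sdha and Atp5sl being the exceptions, 5 had an unadjusted p under 0.05 and the median was 0.096. At ZT20 none was called (0% of all genes), 1 had an unadjusted p under 0.05 (627 of all genes did) and the median was 0.08. Over all 6 time points none was called by limma (0.356% of all genes), 10 had an unadjusted p under 0.05 (1425 of all genes did) and the median was 0.07. Uqcrfs1 was called over all time points without the 3 libraries (adjusted p = 0.019).

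**Figure D5:**
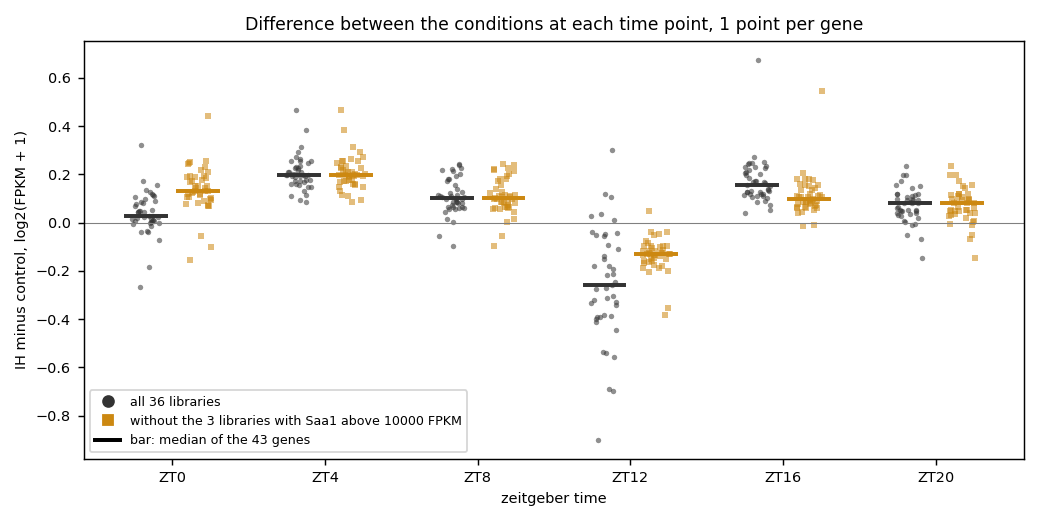
The IH minus control difference of the 43 genes on the log2(FPKM + 1) scale (vertical axis) at each time point (horizontal axis), with and without the 3 libraries with Saa1 above 10000 FPKM. The genes lie above 0 at ZT4 (median 0.20) and mostly below 0 at ZT12 (median -0.26).

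How many of these genes were called for a 24-h cosine depended on the libraries and on the scaling. Where no share stands beside a count, that of all genes in the setting is not given here. Such a count cannot be told from a change in calls over all genes. In control, 6 of the 43 passed a nominal P of 0.01 (limma F test), beside 20.0% of all genes tested; with median of ratios 17 passed, and with the length trend removed 14. They were Cycs (limma adjusted p = 0.0077, peak at ZT15.1), Atp5s (adjusted p = 0.01, peak at ZT5.0), Atp5g3 (adjusted p = 0.012, peak at ZT12.5), Uqcrc1 (adjusted p = 0.02, peak at ZT11.7), Sdhb (adjusted p = 0.023, peak at ZT11.9) and Cox5a (adjusted p = 0.035, peak at ZT13.3). Without the 3 libraries 20 passed, beside 27.4% of all genes, and without control ZT16 replicate 3 alone 13 passed.

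Under IH, 8 of the 43 passed, beside 39.9% of all genes, and 7 without the 3 libraries, beside 42.4%. With median of ratios 28 passed, and with the length trend removed 21, and the shares of all genes in these settings are not given here. Cycs (adjusted p = 0.00012, peak at ZT16.9) was at 37.2, 35.9 and 36 FPKM at ZT8 and at 49.8, 54.8 and 58 FPKM at ZT16, with no overlap. Atp5s (adjusted p = 5e-05, peak at ZT5.5) was at 5.11, 4.48 and 4.08 FPKM at ZT8 and at 2.18, 2.24 and 1.91 FPKM at ZT16, so that it ran opposite to Cycs. Cox7a2l, a factor in the assembly of supercomplexes of complexes III and IV (adjusted p = 0.00046, peak at ZT9.0), was at 96.2, 95.4 and 97.5 FPKM at ZT8 and at 79.9, 81.9 and 80.1 FPKM at ZT16. Atp5sl (adjusted p = 0.00055, peak at ZT8.1) was at 30.9, 30.7 and 29 FPKM at ZT8 and at 16.9, 17.1 and 16 FPKM at ZT16. In the 2 last-named the ZT8 libraries lay above all of ZT16. The other 4 called were Uqcr10 (peak at ZT14.5), Atp5g2 (ZT9.7), Uqcrc1 (ZT10.7) and Atp5g3 (ZT13.5).

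The cosine was not called different between conditions in any member by the test of the difference (limma, 0% of all genes). With an unadjusted p under 0.05 there were 0 members, beside 649 of the 13215 genes tested. The smallest adjusted p was 0.92 (limma), reached by Cycs and Atp5g1 among others. The test over all 6 time points as a factor called none either (0.136% of all genes), with a smallest adjusted p of 0.222, that of Atp5d and Atp5g1. An unadjusted p under 0.05 was reached by 20 members, beside 1876 of all genes. Without the 3 libraries it called none (0.795% of all genes), 20 had an unadjusted p under 0.05, and the smallest adjusted p was 0.0565. It called 15 without control ZT12 replicate 3, where the share of all genes is not given here.

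The same comparisons were made for other gene groups to set these genes beside. Of the 45 genes with symbols starting with Nduf, the prefix of complex I, 37 were higher at ZT12 than at ZT4 in control (median 0.59). Under IH 2 were higher and 3 lower, and the difference was called lower under IH in 10. The prefix also takes in Ndufa4, now counted with complex IV, and Ndufa4l2. Of 92 genes taken as cytosolic ribosomal protein genes, 79 were higher in control (median 0.64) and 4 under IH, with the difference called lower in 2. They were chosen by symbol (Rpl or Rps followed by a digit or the letter a), which may take in other genes and leave some out. Of 77 mitochondrial ribosomal protein genes, 45 were higher in control (median 0.35), 6 under IH, and 10 had the difference called lower. Over ZT4 and ZT8, 12 Nduf genes, 38 cytosolic and 3 mitochondrial ribosomal protein genes were called higher under IH. Of all genes tested, 13.6% were higher at ZT12 in control, and 7.98% were higher and 16.8% lower under IH. For the difference 3.87% of all genes were lower, and over ZT4 and ZT8 6.05% were higher. Leaving out the 3 libraries, the higher calls in control were 37, 77 and 39 for Nduf, cytosolic and mitochondrial ribosomal protein genes, those under IH 5, 21 and 14, and the lower calls for the difference 17, 6 and 13. No test compared these groups with the genes of complexes II to V.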

How the data were processed

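Liver poly(A) RNA of 36 mice was sequenced as strand-specific paired-end libraries. Reads were mapped by the authors to mm10 with TopHat2 2.1.1, and they deposited FPKM values made with Cufflinks 2.2.1 (versions per the submitters' processing notes), 1 table per condition with 24883 rows. The names of the tables gave their conditions. The gene annotation, scaling between samples and the counting of shared reads are not given in the sources used here. The 280 symbols on several rows were left out.

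FPKM were analysed as log2(FPKM + 1) with limma 3.58.1 (intensity trend, R 4.3.3) for 13215 genes (mean FPKM of 0.1 or more), and p-values were adjusted by Benjamini-Hochberg over all of them. One fit of 12 group means gave the time points and the ZT12 minus ZT4 contrasts; ZT4 with ZT8, and all time points, used the time point as a factor; the 24-h cosine was fitted within each condition. limma stands in for the study's Cyber-T and BIO_CYCLE. Replicates are separate mice. Tests were tested on simulated data. Transcript lengths and positions came from GENCODE vM21 (23072 symbols matched by name and 648 by a synonym) and promoters from RefSeq. Figures were drawn with matplotlib 3.10.9.

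The members, the lists and the ZT12 minus ZT4 contrast were chosen with earlier results of these data known. Named were the main subunits and, by rule, the members with the smallest P in each test, also from lists of assembly factors, regulators, subunits under other symbols, acute-phase genes and cell type markers; Uqcr10, Uqcr11, Uqcrq, Atp5e and other small subunits were named after their values were seen. The alternatives were the pseudocount, the filter on low values, 3 scalings, sample weights, the replicate block, other tests and time factors, and each library left out. Removal of a length trend and the omission of all 8 libraries above 1000 FPKM of Saa1 were added after seeing the data.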

Additional observations from a re-analysis of the deposited data

Results flagged for a closer look

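In 7 of the 43 genes the change from ZT4 to ZT12 differed between IH and control by the limma test of the difference itself. On the log2(FPKM + 1) scale, IH minus control, it was -0.59 for Atp5d, -0.52 for Atp5g1, -0.669 for Atp5h, -0.513 for Atp5j, -0.504 for Cox4i1, -0.615 for Cox5b and -0.58 for Cox6a1. None of the 7 was called with FPKM rescaled to a common sum, with median of ratios, with quantile normalization or with the length trend removed, nor without any one of several single libraries (replicates 2 or 3 of IH ZT4 or IH ZT12, or control ZT4 replicates 1 or 3). Atp5g1 was not called without the 3 libraries with high Saa1 (adjusted p = 0.054, limma), and the other 6 were. Each rose in the control livers and was not called under IH. The contrast was chosen with the control time course known, and the shares of all genes in those other settings are not given here. Groups of 3 are too small for the test of a single distant sample.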

How the results depend on the processing

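Counts of members called, of 43, changed as follows. The shares of all genes in these settings are mostly not given here. A change in count can therefore not be told from a change in calls over all genes. For ZT4 with ZT8 (13) the count was 7 without a filter, 6 with FPKM rescaled to a common sum, 3 with median of ratios, 4 with quantile normalization, 23 with sample weights, 0 without the time factor, 3 with the length trend removed, 0 without 8 libraries and 22 at a nominal P of 0.01. For all time points (0) it was 1 with quantile normalization, 1 without the 3 libraries, 2 with weights and 2 at the nominal P. At ZT4 (0) it was 14 without the 3 libraries, 28 with weights, 1 from its own libraries and 1 at the nominal P, which gave 1 at ZT8, 12 at ZT12 and 2 at ZT16 (all 0). The interaction with time (0) was 1 with weights. For ZT12 minus ZT4 the control count (37) was 0 from those time points alone and 19 without 8 libraries, and the IH count (2) was 5 with weights and 4 without 8 libraries. Its difference (7) was 3 without a filter, 13 with a mean of at least 1 FPKM, 0 with each of the common sum, median of ratios and quantile scalings, 24 without the 3 libraries, 18 with weights, 0 with the length trend removed, 0 without 8 libraries and 23 at the nominal P. The median of this last difference kept its sign in every setting. That of IH versus control at ZT0 did not, running from -0.047 to 0.131 with 1 library left out at a time.

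The control rhythm count (6) was 3 with the common sum, 17 with median of ratios, 20 without the 3 libraries, 13 with weights, 16 with an F test over times, 24 with a spread shared between conditions, 14 with the length trend removed and 11 without 8 libraries. The IH count (8) was 5, 28, 4 with the F test, 5 with the shared spread, 21 with the length trend removed and 13 at an adjusted p, the first 2 with the common sum and median of ratios. Leaving out 1 library at a time gave 1 to 21 (ZT4 with ZT8), 0 to 1 (all times), 0 to 15 (interaction with time), 4 to 13 (control rhythm), 5 to 14 (IH rhythm), 34 to 40 (control ZT12 minus ZT4), 2 to 3 (IH), 0 to 29 (difference), 0 to 1 (ZT4) and 0 to 24 (ZT12). The IH rhythm count was 14 without IH ZT0 replicate 3, and 5 without replicate 2 of IH ZT4, replicates 1 or 2 of IH ZT8 or IH ZT16, or any replicate of IH ZT20. The counts for ZT0, ZT20 and the cosine interaction stayed 0. Of 1128 alternative values for single members none reversed, 1058 kept their side of the threshold, 68 lost it and 2 passed it. The rhythm and interaction values among them have no direction, so they could not reverse. Leaving out a library that a fit did not use returned the same value, which counts among the 1058. The cause of the changes in count was not tested.

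Correlations were taken between deviations from the group means. IH and control samples of the same number and time point correlated by 0.0539 on average (-0.179 to 0.294 over 18 pairs). Over all pairs from different groups the mean was -0.000282 with the same number and 0.0011 with another number. Of 36 libraries, 12 correlated best with their own number, out of 3 numbers. The main fits used no pairing by number. A low correlation cannot show whether same-numbered samples shared more than the number. With the replicate block the counts were 8 (ZT4 with ZT8), 6 (difference), 36 (control ZT12 minus ZT4) and 7 (IH rhythm), the others being unchanged.

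Over all genes tested the split of higher to lower calls for ZT4 with ZT8 was 799 to 255, and 458 to 459 with median of ratios and 524 to 429 with quantile normalization. For control ZT12 minus ZT4 it was 1791 to 2203, 973 to 2937 with the common sum and 2334 to 2184 with median of ratios. Time points alone gave no value for the difference. The tables hold no counts, so what depth limits for low genes such as Cox7a1 and Atp5s is unknown.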

Other observations

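Genes that build or regulate these complexes did not all move with the subunits. Of 36 assembly factors, 12 were higher and 5 lower at ZT12 than at ZT4 in control (median 0.15), and 4 were higher and 2 lower under IH, where 30.2% and 24.8% of all genes tested were called in either direction. Coa6, an assembly factor of complex IV, was at 18.1, 18.7 and 18.3 FPKM at ZT4 and at 27.0, 34.6 and 33.2 FPKM at ZT12 in control (0.74, adjusted p = 1.5e-06, limma), and at 20.8, 21.1 and 21.7 FPKM and 24.9, 29.0 and 31.8 FPKM under IH (0.41, adjusted p = 0.0016). It rose in both conditions, without overlap. Sco2, which delivers copper to complex IV, fell in both, from 42.9, 50.1 and 39.4 FPKM to 18.6, 22.7 and 16.9 FPKM in control (-1.15, adjusted p = 5e-05) and from 59.0, 54.5 and 49.7 FPKM to 13.2, 21.0 and 20.1 FPKM under IH (-1.56, adjusted p = 9e-07). Cox17, the copper chaperone of complex IV, rose in control (0.88, adjusted p = 0.00044), was at 0.03 under IH, and the difference between conditions was called (-0.85, adjusted p = 0.04). The rise of Cox17 was 0.52 and the difference -0.50 (adjusted p = 0.032) without the 3 libraries with high Saa1. Over ZT4 and ZT8, 1 assembly factor was higher and 1 lower under IH, beside 6.05% and 1.93% of all genes tested.

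Of 15 regulators of respiratory genes, 1 was higher and 2 lower at ZT12 than at ZT4 in control, beside 13.6% and 16.7% of all genes tested. Without the 3 libraries 6 were higher, beside 19.7% of all genes, and 2 lower. Esrra, the nuclear receptor ERR alpha, was the one higher with all libraries, at 6.94, 7.89 and 7.3 FPKM at ZT4 and at 25.0, 13.1 and 17.1 FPKM at ZT12 (1.17, adjusted p = 1e-04). Under IH it was at 11.2, 11.3 and 12.5 FPKM and at 20.1, 14.5 and 19.5 FPKM (0.57, adjusted p = 0.036), and over ZT4 and ZT8 it was higher under IH (0.41, adjusted p = 0.014). Its groups did not overlap in either condition, and the difference between the conditions in the change was not called with all libraries (-0.59, adjusted p = 0.2) and was called without the 3 (-0.80, adjusted p = 0.021). Gabpb1, which encodes the partner of GABPA, fell in both conditions (-0.64 and -0.62).

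Of 6 subunits of complexes IV and V listed under other symbols, 5 were tested and 4 were higher at ZT12 in control, beside 13.6% of all genes tested. Atpif1, the inhibitory factor of ATP synthase, was at 5.93, 6.36 and 5.75 FPKM at ZT4 and at 8.11, 16.1 and 6.7 FPKM at ZT12 in control, and went from 7.55, 8.26 and 7.59 FPKM to 5.87, 5.52 and 5.37 FPKM under IH. It rose in control (0.60, adjusted p = 0.0064), the IH change missed the threshold (-0.42, adjusted p = 0.062), and the difference was -1.02 (adjusted p = 0.013). Without the 3 libraries, control ZT12 replicate 2 with its 16.1 FPKM among them, the control rise was 0.26 and not called (adjusted p = 0.058), the IH change was called (-0.42, adjusted p = 0.001) and the difference was -0.67 (adjusted p = 0.0046). Ndufa4, now counted with complex IV, was higher at ZT12 in control (0.64, adjusted p = 0.00037), with a difference between conditions of -0.61 (adjusted p = 0.039), and 0.41 and -0.39 without the 3 libraries.

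The 10 acute-phase genes had a median ZT12 difference, IH minus control, of -0.72, and the 8 Kupffer cell and leukocyte markers one of -0.93. These medians were 0.57 and -0.34 without the 3 libraries, so that the sign of the acute-phase median turned. The other marker sums in the libraries of ZT4 and ZT12 were 41.8 to 82.2 FPKM for stellate cells, 29.2 to 41.2 for endothelial cells, 22.2 to 60.5 for cholangiocytes, 42.3 to 85.5 for the 2 of 5 erythroid markers in the tables, 6.19 to 12.2 for adipose, 0.389 to 1.27 for brown adipose (1 of 4 at 0 in all libraries), 0.387 to 1.13 for skeletal muscle and 9.4 to 18.5 for pancreas (3 of 5 at 0). Their part in the results was not tested.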
